A study of Mus musculus with 8 samples.

Results

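The 42 genes described here encode machinery of DNA replication and of mitosis. They were taken as a fixed list of symbols. The S phase set holds 21 of them, Mcm2, Mcm3, Mcm4, Mcm5, Mcm6, Mcm7, Pcna, Rrm1, Rrm2, Tyms, Tk1, Gins2, Uhrf1, Ccne1, Ccne2, E2f1, Cdc6, Cdt1, Cdc45, Fen1 and Prim1. The mitotic set holds the other 21, Mki67, Top2a, Ccna2, Ccnb1, Ccnb2, Cdk1, Birc5, Aurka, Aurkb, Bub1, Bub1b, Plk1, Cdc20, Kif11, Cenpa, Cenpe, Cenpf, Tpx2, Nusap1, Kif20a and Kif23. All 42 had a row among the 22878 gene symbols of the tables, and all 42 were among the 13619 genes that passed the filter on low counts. For 10 members the tables list more than 1 transcript, and the one with the most reads was used.

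RNA was sequenced from 4 progenitor populations sorted from the marrow of C57BL/6 mice, an inbred strain with no engineered allele named in the labels, with 2 libraries per population. The labels call PD-1+ cells progenitors of innate lymphoid cells (ILCs) that do not form the LTi (lymphoid tissue inducer) kind, and CCR6+ cells progenitors of the LTi kind. ChILP is the common helper-like ILC progenitor, and CLP the common lymphoid progenitor. ChILP were gated live and lineage-negative, CD127+ Flt3- α4β7+ Kit+ and negative for ST2, the IL-33 receptor. PD-1+ cells came from within that gate and were CCR6-, and CCR6+ cells came from within it and were PD-1-. CLP were gated live and lineage-negative, CD127+ Flt3+ α4β7- Sca-1+ Kit+. Before sorting, PD-1+ and CCR6+ cells had been captured on a magnetic column by integrin α4β7, whereas lineage-positive cells had been depleted for ChILP and CLP. The labels name no age, sex or number of animals, nor whether both libraries of a population stem from different mice; p-values therefore reflect the spread between these samples alone, and that spread may be technical.

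A dividing cell licenses its replication origins in G1, when ORC, CDC6 and CDT1 load the ring-shaped MCM helicase onto DNA. Cyclin E with CDK2, and E2F factors freed from the retinoblastoma proteins, then start S phase, in which the helicase is activated by CDC45 and GINS and the DNA is copied. Genes of G2 and mitosis are switched on later, by B-MYB and FOXM1 with the MuvB complex. Their products condense the chromosomes, build the spindle and divide the cell. In marrow these transcripts are abundant in cycling progenitors of every lineage, erythroid and myeloid ones included.

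The tables hold 7685191 to 13997891 reads per library in the rows used. Markers of the labelled populations were present: the 7 regulators of ILC progenitors (Gata3, Id2, Tcf7, Tox, Zbtb16, Rora and Nfil3) summed to 478 to 1740.4 RPKM in PD-1+, 245 to 311 in CCR6+, 462 to 808 in ChILP and 47.9 to 48.3 in CLP. RPKM is the number of reads scaled to transcript length and to library size. Pdcd1, which encodes PD-1, had 181 and 36.3 RPKM in PD-1+, 0 and 1.10 in CCR6+, 70.9 and 92.8 in ChILP and 0.823 and 0.319 in CLP. Ccr6 had 0 and 8.11 RPKM in PD-1+, 84.2 and 23.6 in CCR6+, 3.84 and 8.21 in ChILP and 0 and 0 in CLP. Ccr6 thus followed the labels, with less in the number 2 than in the number 1 library of CCR6+. Pdcd1 followed them in full only in the number 1 library of PD-1+. The number 2 library of PD-1+, at 36.3 RPKM, lay above all CCR6+ and CLP libraries. It lay below both ChILP libraries (70.9 and 92.8), although PD-1+ cells were sorted from within the ChILP gate. The other genes of the gates were not all alike within the shared gate. Of 9 gate and progenitor genes, with Pdcd1 and Ccr6 among them, 1 was lower and 2 were higher in PD-1+ and CCR6+ than in ChILP (edgeR, adjusted p under 0.05), and 6 did not pass. All libraries also held transcripts of other marrow lineages. The summed level of 11 mature neutrophil and macrophage genes was 16171 to 32856 RPKM in PD-1+, 21937 to 35459.7 in CCR6+, 1457 to 6734 in ChILP and 1162 to 5249 in CLP; none of the 11 was at 0 in any group. Of 11 erythroid genes none was at 0 either, and they summed to 29468 to 34309 RPKM in PD-1+, 34979 to 42749 in CCR6+, 2500.2 to 8357 in ChILP and 2405 to 6129 in CLP. The erythroid factors Klf1 and Gata1, picked after their values were seen, did not follow this sum in RPKM. Klf1 had 229.7 and 295 RPKM in PD-1+, 375 and 305 in CCR6+, 396 and 276 in ChILP and 291 and 254 in CLP. Gata1 had 66.7 and 51.7 RPKM in PD-1+, 99.7 and 82.4 in CCR6+, 159 and 113 in ChILP and 111 and 88.4 in CLP. Genes of early myeloid progenitors ran the other way: 9 of them, none at 0, summed to 868 to 1675 RPKM in PD-1+, 1301 to 1994 in CCR6+, 8517 to 10059 in ChILP and 7088 to 7178.5 in CLP. The 10 B lineage genes summed to 234 to 275 RPKM in PD-1+, 308 to 328 in CCR6+, 28.6 to 70.0 in ChILP and 220.1 to 288 in CLP, and 5 plasmacytoid dendritic genes to 559 to 776 in PD-1+, 851 to 861 in CCR6+, 370 to 383 in ChILP and 706 to 1071 in CLP.

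Members were expressed in every library. Over all 8 libraries the mean levels ran from 12.0 RPKM for Ccne2 to 183 for Fen1 in the S phase set, and from 6.20 for Cenpe to 154 for Ccnb2 in the mitotic set. Fen1 (NM_007999), the flap endonuclease that trims Okazaki fragments, had 141 and 116 RPKM in PD-1+, 149 and 137 in CCR6+, 243 and 206 in ChILP and 212 and 258 in CLP. Rrm2 (NM_009104), the small subunit of the ribonucleotide reductase that makes deoxynucleotides, had 167 and 165 RPKM in PD-1+, 249.5 and 202 in CCR6+, 234 and 145 in ChILP and 161 and 138 in CLP. Fen1 was lower in all 4 PD-1+ and CCR6+ libraries than in the other 4, while the libraries of Rrm2 overlapped, with both CCR6+ values among the 3 highest. Among mitotic members, Ccnb2 (NM_007630), cyclin B2, had 110.3 and 174 RPKM in PD-1+, 186 and 199 in CCR6+, 157 and 119 in ChILP and 137 and 151 in CLP. Cenpa (NM_007681), the histone H3 variant that marks centromeres, had 131 and 135 RPKM in PD-1+, 159 and 147 in CCR6+, 179 and 171 in ChILP and 146 and 143 in CLP. Cdc20 (NM_023223), the activator of the anaphase promoting complex, had 106 and 116 RPKM in PD-1+, 136 and 124 in CCR6+, 169 and 152 in ChILP and 139.9 and 164 in CLP. Ccna2 (NM_009828), cyclin A2, had 76.9 and 94.1 RPKM in PD-1+, 146 and 99.5 in CCR6+, 115 and 111 in ChILP and 102 and 78.0 in CLP. Cenpa, Ccnb2 and Ccna2 overlapped between the populations, and Cdc20 was lower in the 4 PD-1+ and CCR6+ libraries on this scale. Between its highest and its lowest library, the median member changed 2.47-fold in the S phase set and 1.81-fold in the mitotic set.

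**Figure D1:**
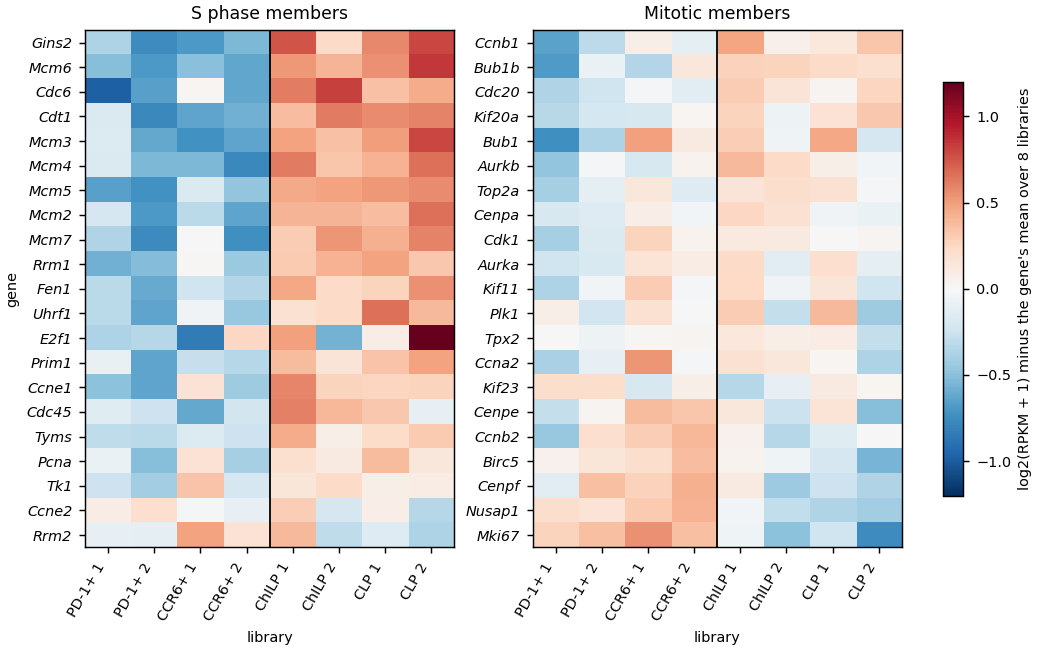
Level of each member in each library, as log2(RPKM + 1) minus the mean of that gene over the 8 libraries; rows are genes, ordered by their log2 fold change of PD-1+ and CCR6+ over ChILP and CLP, and columns are libraries. Most S phase members are blue (below their own mean) in the 4 libraries left of the line and red (above it) in the 4 to its right, whereas most mitotic members show no such split; Mki67, Nusap1 and Birc5 are red on the left.

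The first comparison, ChILP against CLP, asked what sets the ILC progenitor apart from the lymphoid progenitor before it, and no member was called. S phase members had a median log2 fold change of -0.02 and mitotic members of 0.15, against 0.05 over all genes tested. Above 0 lay 17 of 21 mitotic and 8 of 21 S phase members, beside 54.8% of all genes. None of the 42 was called by edgeR's quasi-likelihood test at a Benjamini-Hochberg adjusted p under 0.05, where 0.022% of all genes were called (3 genes; DESeq2 called 263, or 1.93%, again without a member), and none had an unadjusted p under 0.05, where 5.82% of all genes did. The summed RPKM of the S phase set was 2150 and 1957 in ChILP, against 2054 and 2238.5 in CLP, and that of the mitotic set 1333 and 1166 in ChILP, against 1188 and 1091 in CLP. In both sets the groups overlapped. None of the 7 regulators of ILC progenitors was called in this comparison either, at a median log2 fold change of 3.89. The lack of calls therefore does not show that the members are equal in ChILP and CLP.

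The members farthest from no change are the following. E2f1 (NM_007891), a transcription factor that starts S phase, had 21.7 and 9.85 RPKM in ChILP, against 16.1 and 38.4 in CLP (log2 fold change -0.71, SE 0.54). Cdc45 (NM_009862), which activates the MCM helicase, had 35.0 and 30.2 RPKM in ChILP, against 28.7 and 21.2 in CLP (log2 fold change 0.43, SE 0.27). E2f1 values overlapped, and those of Cdc45 lay apart by less than the gap between the 2 CLP libraries. In the mitotic set, Birc5 (NM_001012273), which encodes survivin of the chromosomal passenger complex, had 72.2 and 67.7 RPKM in ChILP, against 60.9 and 47.5 in CLP, with a log2 fold change of 0.41 (SE 0.21). Ccna2 had 115 and 111 RPKM in ChILP, against 102 and 78.0 in CLP, with 0.37 (SE 0.27). Both genes were higher in each ChILP library than in each CLP library, which held for 17.0% of all genes, and for Ccna2 the gap is small against the spread of CLP. Without 1 library at a time the median of mitotic members was lowest without CLP replicate 2 (0.00) and highest without CLP replicate 1 (0.40).

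The second comparison, PD-1+ against CCR6+, asked what sets apart the progenitors of LTi cells from those of other ILCs. Most members of both sets had a log2 fold change below 0, and no single one was called. This held for 20 of 21 mitotic members (median -0.29) and for 16 of 21 S phase members (median -0.23), against 48.8% of all genes (median 0.01). None of the 42 was called, where edgeR called 0.0% of all genes (801 genes had an unadjusted p under 0.05, and DESeq2 called 128, or 0.94%, none of them members). Of the 42 members 3 (Mcm5, Cdk1 and Bub1) had an unadjusted p under 0.05, beside 5.88% of all genes. The 9 gate and progenitor genes, Pdcd1 and Ccr6 among them, were not called either, with log2 fold changes from -3.73 to 7.39. The lack of calls therefore does not show that the members are equal in PD-1+ and CCR6+ cells.

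Bub1 (NM_001113179), a kinase of the spindle checkpoint, had 3.54 and 4.84 RPKM in PD-1+, against 9.60 and 7.13 in CCR6+ cells (log2 fold change -1.05, SE 0.40, adjusted p = 0.815, edgeR). Cenpe (NM_173762), a kinesin of the kinetochore, had 4.77 and 6.21 RPKM in PD-1+ and 8.15 and 7.91 in CCR6+ (log2 fold change -0.60, SE 0.36, adjusted p = 0.85, edgeR). Both are low in these libraries, with less RNA in each PD-1+ library than in each CCR6+ library. Cdk1 (NM_007659), the kinase that drives mitosis, had 33.7 and 39.8 RPKM in PD-1+ against 54.4 and 46.3 in CCR6+ cells (log2 fold change -0.51, SE 0.20). In the S phase set the farthest were Cdc6 (NM_001025779), a loader of the MCM helicase, with 9.11 and 11.7 RPKM in PD-1+, against 19.1 and 11.9 in CCR6+, and Ccne1 (NM_007633), cyclin E1, with 35.1 and 31.7 RPKM in PD-1+, against 56.4 and 36.7 in CCR6+. Their log2 fold changes were -0.63 (SE 0.28) and -0.54 (SE 0.25). Of mitotic members 14 of 21 had lower RPKM in both PD-1+ than in both CCR6+ libraries, as had 7 of 21 S phase members and 14.2% of all genes.

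The sums show the libraries behind these medians. The mitotic set summed to 977 RPKM in PD-1+ replicate 1 and 1126 in replicate 2, against 1308 and 1247 in the CCR6+ libraries, so both PD-1+ libraries were lower. The S phase set summed to 1298 and 1092 in PD-1+, against 1475 and 1214 in CCR6+, which overlap. Without PD-1+ replicate 2 the mitotic median was -0.54, without PD-1+ replicate 1 it was -0.18, and without CCR6+ replicate 1 the S phase median was -0.07. Markers of other lineages lay on the same side: all 11 erythroid genes had a log2 fold change below 0 in PD-1+ cells (median -0.45), as had all 11 mature neutrophil and macrophage genes (median -0.16), and their part in the result was not tested.

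**Figure D2:**
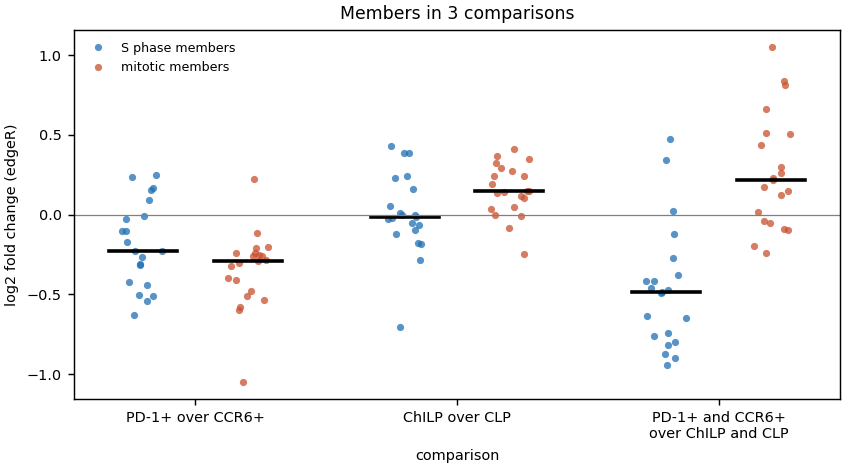
Log2 fold change of each member (edgeR, y axis) in 3 comparisons (x axis), with S phase members in blue, mitotic members in red and a black bar at the median of each set. In these edgeR fits the sets lie close together for PD-1+ over CCR6+ (medians -0.23 and -0.29) and for ChILP over CLP (-0.02 and 0.15), and apart for PD-1+ and CCR6+ over ChILP and CLP (-0.49 and 0.22; on the RPKM scale -0.76 and -0.06).

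Set against ChILP and CLP, the PD-1+ and CCR6+ libraries together had less RNA of all 6 MCM subunits, of Cdc6, Cdt1 and Gins2, whose products load or activate the MCM helicase, and of Fen1. Of the S phase members 10 of 21 fell (edgeR, adjusted p under 0.05 over all genes), no S phase member rose, and the median log2 fold change was -0.49. Of the mitotic members 4 of 21 rose and none fell, with a median of 0.22. Over all genes 22.0% were called, 10.5% lower and 11.4% higher, and the median was -0.08. Below 0 lay 18 of 21 S phase members, beside 53.7% of all genes, and above 0 lay 15 of 21 mitotic members, beside 46.3%. On the RPKM scale, tested with limma, the median of all genes was -0.30 and that of S phase members -0.76 (16 called lower), and the median of mitotic members turned to -0.06, with 1 called lower (Cdc20) and 2 higher; relative to all genes this is -0.46 and 0.24. Of the genes called, 48.0% were lower by edgeR and 70.7% on the RPKM scale. Route of enrichment and gate cannot be told apart in this comparison, nor in bulk RNA fewer cells of a type from less RNA per cell.

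Every subunit of the MCM2 to MCM7 ring fell. Mcm6 (NM_008567) had 115 and 101 RPKM in PD-1+, 115 and 106 in CCR6+, 236 and 218 in ChILP and 240.4 and 297 in CLP (log2 fold change -0.90, SE 0.12, adjusted p = 0.00263, edgeR). Mcm2 (NM_008564) had 109 and 77.7 RPKM in PD-1+, 101 and 80.8 in CCR6+, 168 and 167 in ChILP and 163 and 199.7 in CLP (log2 fold change -0.65, SE 0.14). Both were lower in each of the 4 PD-1+ and CCR6+ libraries than in any ChILP or CLP library. Mcm3 (NM_008563) had 98.1 and 71.7 RPKM in PD-1+, 66.4 and 70.7 in CCR6+, 155 and 141 in ChILP and 157 and 192 in CLP, and Mcm4 (NM_008565) had 48.7 and 37.7 RPKM in PD-1+, 37.6 and 31.8 in CCR6+, 85.4 and 69.9 in ChILP and 74.0 and 87.8 in CLP. Mcm5 (NM_008566) had 65.5 and 62.1 RPKM in PD-1+, 91.7 and 74.2 in CCR6+, 142 and 145 in ChILP and 149 and 153 in CLP. None of these 3 overlapped between the pairs of populations, and edgeR gave a log2 fold change of -0.80 for Mcm3 (SE 0.13), -0.76 for Mcm4 (SE 0.14) and -0.74 for Mcm5 (SE 0.13). Mcm7 (NM_008568) had 84.5 and 63.8 RPKM in PD-1+, 109 and 65.2 in CCR6+, 135 and 158 in ChILP and 146 and 165 in CLP (log2 fold change -0.63, SE 0.19, adjusted p = 0.0443, edgeR), the weakest call of the 6, and it was kept in 1 of the 8 fits that left out a library. All 6 were lower under every alternative tried. Together the 6 subunits summed to 521 and 414 RPKM in PD-1+, 521 and 429 in CCR6+, 922 and 899.5 in ChILP and 929 and 1095 in CLP.

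Cdt1, Cdc6 and Gins2, whose products load or activate this helicase, fell as well. Cdt1 (NM_026014), the licensing factor that brings the MCM ring to origins, had 54.4 and 35.6 RPKM in PD-1+, 39.4 and 40.9 in CCR6+, 80.1 and 95.2 in ChILP and 91.8 and 93.2 in CLP (log2 fold change -0.82, SE 0.15, adjusted p = 0.00805, edgeR). Cdc6 had 9.11 and 11.7 RPKM in PD-1+, 19.1 and 11.9 in CCR6+, 29.4 and 34.1 in ChILP and 24.4 and 26.1 in CLP (log2 fold change -0.88, SE 0.20, adjusted p = 0.0182, edgeR). Cdt1 and Cdc6 did not overlap between the pairs of populations. Gins2 (NM_178856), a subunit of the GINS complex that joins the helicase, had 34.3 and 26.1 RPKM in PD-1+, 27.4 and 30.5 in CCR6+, 76.4 and 52.6 in ChILP and 67.5 and 78.7 in CLP, the lowest fold change of all members (log2 fold change -0.94, SE 0.18, adjusted p = 0.00971, edgeR). Cdc45, its partner at the fork, had 20.4 and 19.0 RPKM in PD-1+ and 14.5 and 19.3 in CCR6+, against 35.0 and 30.2 in ChILP and 28.7 and 21.2 in CLP and was not called (log2 fold change -0.38, SE 0.19, adjusted p = 0.207, edgeR). Fen1 fell with a log2 fold change of -0.49 (SE 0.12), a call that was lost without any 1 of the 8 libraries.

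The other 11 S phase members were not called, and not all of them differed in direction. Rrm1, Tyms, Uhrf1, Ccne1, Prim1 and Cdc45 had lower RPKM in all 4 PD-1+ and CCR6+ libraries than in all 4 others. Rrm2, Tk1 and Ccne2 had log2 fold changes above 0. Genes of nucleotide supply did not pass the test: Rrm1 (NM_009103), the large subunit of ribonucleotide reductase, had a log2 fold change of -0.49 (SE 0.15), Tyms (NR_033402), thymidylate synthase, -0.27 (SE 0.14; uncertain, since reads may be shared with the copy Tyms-ps) and Tk1 (NM_009387), thymidine kinase, 0.02 (SE 0.15). Rrm2, whose product pairs with that of Rrm1, had 0.47 (SE 0.19), an adjusted p of 0.109 in edgeR, and was called higher by DESeq2. The sliding clamp Pcna (NM_011045) had 77.9 and 57.6 RPKM in PD-1+, 92.8 and 62.3 in CCR6+, 93.9 and 88.9 in ChILP and 107 and 90.4 in CLP, with a log2 fold change of -0.12 (SE 0.18). Its libraries overlapped between the populations. Cyclin E genes had -0.41 (Ccne1, SE 0.17) and 0.34 (Ccne2, SE 0.22), and Uhrf1, which reads newly copied methylated DNA, -0.47 (SE 0.16). Prim1 (primase) and E2f1 had -0.42 and -0.46 (SE 0.17 and 0.38). In RPKM, 16 of 21 S phase members were lower in all 4 PD-1+ and CCR6+ libraries than in all 4 others, which held for 22.5% of all genes.

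Among mitotic members, Mki67 (NM_001081117), whose product coats mitotic chromosomes and is the Ki-67 antigen, had 32.4 and 34.7 RPKM in PD-1+, 39.6 and 34.6 in CCR6+, 25.7 and 18.8 in ChILP and 22.4 and 15.4 in CLP (log2 fold change 1.05, SE 0.19, adjusted p = 0.00783, edgeR). Nusap1 (NM_133851), a protein that bundles spindle microtubules, had 48.5 and 47.0 RPKM in PD-1+, 52.0 and 56.0 in CCR6+, 40.8 and 33.9 in ChILP and 32.2 and 31.0 in CLP (log2 fold change 0.84, SE 0.13, adjusted p = 0.00441, edgeR). Birc5 had 72.9 and 77.8 RPKM in PD-1+, 81.8 and 90.9 in CCR6+, 72.2 and 67.7 in ChILP and 60.9 and 47.5 in CLP (log2 fold change 0.66, SE 0.15, adjusted p = 0.018, edgeR). All 3 were higher in each PD-1+ and CCR6+ library than in any ChILP or CLP library, which held for 9.05% of all genes. Cenpf (NM_001081363), a kinetochore protein, had 6.44 and 9.39 RPKM in PD-1+, 8.82 and 9.89 in CCR6+, 7.74 and 4.97 in ChILP and 5.81 and 5.30 in CLP (log2 fold change 0.81, SE 0.21, adjusted p = 0.0302, edgeR), and its libraries overlapped. The other 17 mitotic members did not pass, with log2 fold changes from -0.24 for Ccnb1 (cyclin B1, SE 0.19) to 0.51 for Ccnb2 (SE 0.19). Near 0 lay Top2a (NM_011623), the topoisomerase that untangles replicated chromosomes, with 38.1 and 46.8 RPKM in PD-1+, 55.7 and 45.1 in CCR6+, 56.1 and 58.7 in ChILP and 57.4 and 49.6 in CLP and a log2 fold change of 0.02 (SE 0.16). Aurkb (Aurora B), Bub1, Kif20a (a kinesin of cytokinesis) and Cdc20 lay between -0.10 and -0.04 (SE 0.13 for Cdc20 and 0.16 for Aurkb), and Cenpa, Cdk1, Aurka (Aurora A), Kif11 (a spindle motor), Plk1 (a mitotic kinase), Tpx2 (an activator of Aurora A) and Ccna2 between 0.12 and 0.30 (SE 0.12 for Cenpa and 0.19 for Ccna2). Bub1b, of the spindle checkpoint, had -0.19 (SE 0.20), Kif23, a kinesin of cytokinesis, 0.44 (SE 0.16) and Cenpe 0.51 (SE 0.25).

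**Figure D3:**
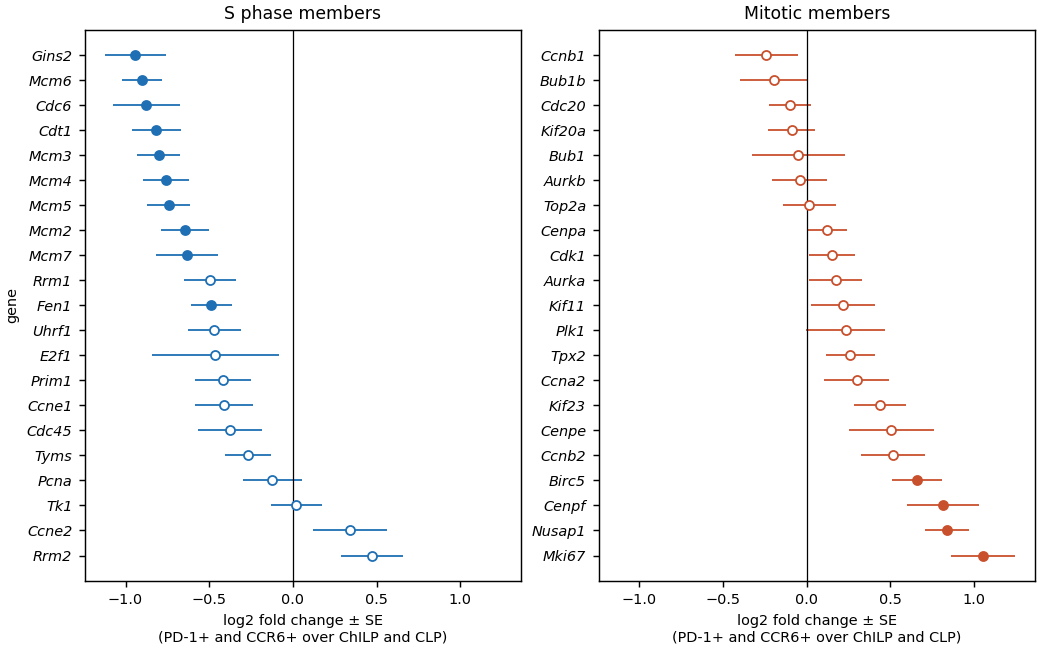
Log2 fold change of PD-1+ and CCR6+ over ChILP and CLP for each member (edgeR, points with SE as bars), S phase members on the left and mitotic members on the right; filled points have an adjusted p under 0.05 over all genes. The 10 filled S phase points all lie below 0, from -0.94 for Gins2 to -0.49 for Fen1, and the 4 filled mitotic points lie above 0, up to 1.05 for Mki67.

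The sets can also be compared within each library, without scaling libraries to each other. The mean log2(RPKM + 1) of the S phase set minus that of the mitotic set was 0.54 and 0.12 in PD-1+, 0.23 and 0.09 in CCR6+, 0.87 and 0.90 in ChILP and 0.90 and 1.19 in CLP. The 4 PD-1+ and CCR6+ libraries thus all lay below the other 4. The ratio of Mcm6 to Mki67 RPKM (a pair chosen after the values were seen) was 3.54 and 2.92 in PD-1+ libraries and 2.92 and 3.06 in CCR6+ libraries, against 9.19 and 11.6 in ChILP and 10.7 and 19.3 in CLP. Mitotic members are longer transcripts than S phase members (median 3416 against 2460 bases). Over all genes the median log2 fold change was -0.14 for genes up to 2019 bases, -0.08 for those of middle length and -0.01 for genes over 3535 bases. The part of length in the result was not tested.

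**Figure D4:**
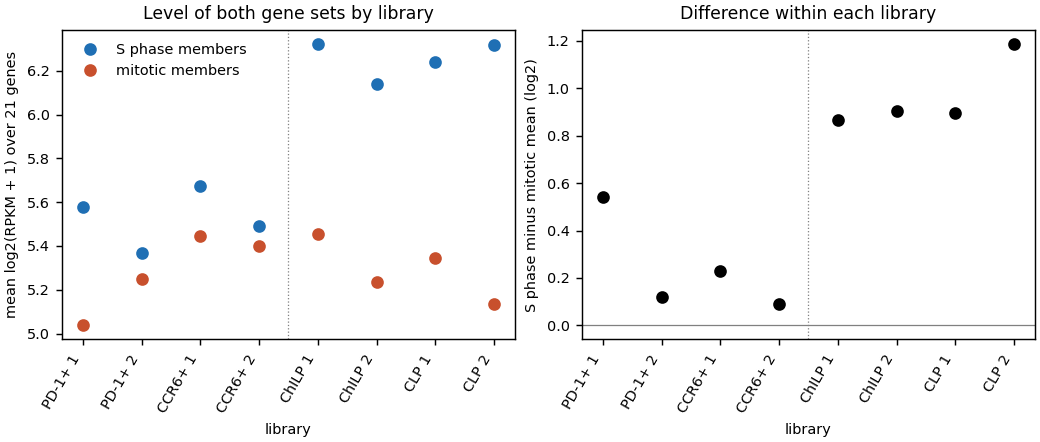
Left, mean log2(RPKM + 1) over the 21 genes of the S phase set (blue) and of the mitotic set (red) in each library; right, their difference in each library. The blue points lie at 5.37 to 5.67 for PD-1+ and CCR6+, against 6.14 to 6.32 for ChILP and CLP, while the red points overlap, and the difference is 0.09 to 0.54 against 0.87 to 1.19.

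Measured against ChILP alone, which shares the gate apart from PD-1 and CCR6, 7 S phase members fell (Mcm3, Mcm4, Mcm5, Mcm6, Gins2, Cdc6 and Cdt1) and 2 mitotic members rose (Mki67 and Nusap1), with medians of -0.53 and 0.12 (edgeR; a comparison added after seeing the data). Over all genes 12.2% were called there, 6.19% lower and 6.06% higher. These values share the PD-1+, CCR6+ and ChILP libraries with the ones above. ChILP had been enriched by lineage depletion, and PD-1+ and CCR6+ cells by magnetic capture. Route of enrichment and gate cannot be told apart in this comparison either. Of the 14 members called, 8 were called in every fit that left out 1 library: Mcm3, Mcm4, Mcm5, Mcm6, Gins2, Cdt1, Mki67 and Nusap1. All 14 kept their direction. Cdc6 was lost without ChILP replicate 2 or CLP replicate 2, and Mcm2 and Birc5 without any 1 of these or CCR6+ replicate 2; Cenpf was called in 2 of the 8 fits. Counts moved by over 1.5 times without CCR6+ replicate 2 (9 members called), ChILP replicate 2 (8) and CLP replicate 2 (8). Without both number 1 libraries of ChILP and CLP, which held more mature neutrophil and erythroid transcripts than the number 2 libraries, 2 S phase members (Mcm3 and Mcm6) and 3 mitotic members (Mki67, Birc5 and Nusap1) were called.

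Markers of other lineages moved with this contrast. Of 11 mature neutrophil and macrophage genes 7 rose, of 11 erythroid genes 5 rose, and of 9 early myeloid progenitor genes 6 fell and 1 (Csf1r) rose (edgeR). Mpo, myeloperoxidase of granulocyte progenitors, had 201 and 440.0 RPKM in PD-1+, 328 and 529.8 in CCR6+, 4218 and 3380.1 in ChILP and 2816 and 3121 in CLP. By their summed levels the early myeloid genes were high in the same 4 libraries as the S phase members, and the erythroid ones in the same 4 as the risers of the mitotic set. The erythroid sum includes the globin genes Hba-a1 and Hbb-b1. Of the 11 erythroid genes 10 had a log2 fold change above 0 (median 0.72, edgeR). The RPKM of Klf1 and Gata1, picked after their values were seen, did not follow the sum. Globin took 4.17% to 5.98% of reads in PD-1+ and CCR6+ libraries, against 0.101% to 0.839% in ChILP and CLP. The part of these other lineages in the result was not tested.

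Because the 2 sets are known to answer to different promoter motifs, promoters are shown for members of each. RefSeq promoters (300 bases spanning the start of a gene, most of them before it, build GRCm38.p6) were matched by symbol for 18 of 21 S phase and 17 of 21 mitotic members. Shown are the 2 members of each set with the highest RPKM, and Mcm6 and Mki67, added after their values were seen. Capitals mark 3 motifs on either strand, counted without overlap within a motif: an E2F core (TTCGCGC, or with other middle letters TTGGCGC, and likewise TTCCCGC, and also TTGCCGC), the cell cycle homology region CHR (TTTGAA or TTCGAA), and the CCAAT box, the site of NF-Y. Fen1 has 2 promoters in the table, of which the first is shown, with 1 CHR match; its E2F core lies in the other, and a gene counts as holding a motif if any of its promoters does.
Fen1 (chr19:10204344-10204643, minus strand): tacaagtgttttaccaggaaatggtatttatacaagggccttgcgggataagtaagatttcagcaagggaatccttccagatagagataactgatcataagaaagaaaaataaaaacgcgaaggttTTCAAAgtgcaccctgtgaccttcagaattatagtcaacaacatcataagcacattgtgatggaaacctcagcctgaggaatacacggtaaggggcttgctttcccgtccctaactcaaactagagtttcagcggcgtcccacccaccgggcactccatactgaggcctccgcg
Rrm2 (chr12:24708004-24708303, plus strand): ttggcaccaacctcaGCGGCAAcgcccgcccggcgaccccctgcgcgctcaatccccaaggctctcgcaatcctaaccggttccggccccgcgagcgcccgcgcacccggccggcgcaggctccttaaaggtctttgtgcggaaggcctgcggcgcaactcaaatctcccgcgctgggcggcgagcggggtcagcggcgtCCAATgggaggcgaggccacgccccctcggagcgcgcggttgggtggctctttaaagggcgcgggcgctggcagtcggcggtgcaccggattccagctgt
Mcm6 (chr1:128359656-128359955, minus strand): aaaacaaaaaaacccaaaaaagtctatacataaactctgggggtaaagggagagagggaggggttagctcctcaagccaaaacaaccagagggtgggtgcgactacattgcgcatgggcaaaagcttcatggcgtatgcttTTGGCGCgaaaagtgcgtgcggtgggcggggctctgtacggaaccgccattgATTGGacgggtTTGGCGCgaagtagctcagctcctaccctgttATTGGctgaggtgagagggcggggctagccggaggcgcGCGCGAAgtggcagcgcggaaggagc
Ccnb2 (chr9:70421505-70421804, minus strand): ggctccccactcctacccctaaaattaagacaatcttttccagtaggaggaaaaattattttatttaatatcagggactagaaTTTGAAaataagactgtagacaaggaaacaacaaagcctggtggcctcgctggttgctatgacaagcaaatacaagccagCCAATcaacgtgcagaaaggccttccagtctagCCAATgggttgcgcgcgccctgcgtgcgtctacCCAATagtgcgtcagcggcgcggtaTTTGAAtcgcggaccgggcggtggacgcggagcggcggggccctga
Cenpa (chr5:30666636-30666935, plus strand): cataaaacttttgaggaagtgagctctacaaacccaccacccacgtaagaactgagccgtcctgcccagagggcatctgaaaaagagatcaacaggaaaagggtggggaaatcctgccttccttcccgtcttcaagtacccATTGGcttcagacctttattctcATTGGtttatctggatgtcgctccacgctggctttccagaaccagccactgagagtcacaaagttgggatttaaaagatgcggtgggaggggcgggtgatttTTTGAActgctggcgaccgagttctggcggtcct
Mki67 (chr7:135716330-135716629, minus strand): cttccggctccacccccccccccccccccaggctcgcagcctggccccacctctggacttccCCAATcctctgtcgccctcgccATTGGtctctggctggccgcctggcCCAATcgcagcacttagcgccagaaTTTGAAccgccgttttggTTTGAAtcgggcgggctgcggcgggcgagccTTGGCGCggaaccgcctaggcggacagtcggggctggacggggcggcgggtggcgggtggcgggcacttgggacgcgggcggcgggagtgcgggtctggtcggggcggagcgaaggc
The Mcm6 promoter holds 3 E2F cores and no CHR match, and the Rrm2 promoter 1 and none. Mki67 holds 1 E2F core, 2 CHR matches and 3 CCAAT boxes, and Ccnb2 0, 2 and 3.

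The motifs were shared out unevenly. An E2F core was present in 11 of 18 S phase members (61.1%) and 3 of 17 mitotic members (17.6%), beside 10.9% of the 27025 genes of the promoter table. A CHR was present in 13 of 17 mitotic members (76.5%) and 4 of 18 S phase members (22.2%), beside 21.7% of all genes. CCAAT boxes were present in 15 of 17 mitotic (88.2%) and 11 of 18 S phase members (61.1%), beside 41.1% of all genes, and 13 mitotic members held both CHR and CCAAT, beside 9.65% of all genes. Among the S phase members called, Mcm3, Mcm5, Mcm6, Mcm7, Cdc6, Cdt1 and Fen1 held an E2F core and Mcm2 did not; Mcm4 and Gins2 were not matched. Rrm1, Rrm2, Uhrf1 and Prim1, which were not called, held one too. Of the mitotic risers, Mki67 and Cenpf held CHR and CCAAT, and Nusap1 and Birc5 held none of the 3 motifs in this window. These motifs are a description of the listed letters, not of binding.

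Other genes of the same machinery, from lists chosen with earlier results of these data known, are given next. Of 43 other replication genes 13 fell in PD-1+ and CCR6+ cells, 1 rose and 29 did not pass (edgeR), beside 10.5% of all genes lower and 11.4% higher, with a median log2 fold change of -0.45. Pold2 (NM_008894), a subunit of the lagging strand polymerase delta, had 53.3 and 45.5 RPKM in PD-1+, 42.8 and 51.1 in CCR6+, 119.9 and 128 in ChILP and 107 and 147 in CLP (log2 fold change -1.10, SE 0.14, adjusted p = 0.00219, edgeR). Dut (NM_001159646), which clears dUTP, had 43.0 and 40.2 RPKM in PD-1+, 55.9 and 32.5 in CCR6+, 104 and 130.1 in ChILP and 121 and 101 in CLP (log2 fold change -1.14, SE 0.20, adjusted p = 0.00741, edgeR). Neither overlapped between the pairs of populations. Prim2, Orc2, Pola2, Orc5, Timeless, Rpa2, Rfc5, Pold1, Rfc4, Tipin and Orc3 also fell, and Asf1b, a histone chaperone, rose. Of 58 other mitotic genes 1 fell (Cks1b), 5 rose (Cdc25b, Kif18b, Pttg1, Ube2c and Racgap1) and 52 did not pass, with a median of 0.16; both shares lie below those of all genes, 10.5% lower and 11.4% higher. Cdc25b (NM_023117), the phosphatase that activates CDK1, had 46.3 and 44.6 RPKM in PD-1+, 51.0 and 41.3 in CCR6+, 20.3 and 15.6 in ChILP and 17.3 and 15.6 in CLP (log2 fold change 1.69, SE 0.16, adjusted p = 0.00138, edgeR), higher in every PD-1+ and CCR6+ library. Dut, Pold2 and Cdc25b were called without any 1 library. Kif18b (NM_197959), a mitotic kinesin, had 16.9 and 11.1 RPKM in PD-1+, 17.7 and 9.60 in CCR6+, 5.04 and 8.14 in ChILP and 8.12 and 4.90 in CLP (log2 fold change 1.34, SE 0.32, adjusted p = 0.0212, edgeR), a call lost without CCR6+ replicate 1, ChILP replicate 1 or CLP replicate 2.

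Among genes that act before replication, 10 genes of G1 cyclins and kinases were tested, of which 5 fell, 2 rose and 3 did not pass (median -0.75), beside 10.5% of all genes lower and 11.4% higher. Cdk2, Cdk7 and Cdc25a did not pass (log2 fold change -0.09, SE 0.15, then -0.64, SE 0.20, and -0.77, SE 0.24). Of these, Cdc25a was the farthest from no change (adjusted p = 0.0575, edgeR). Cdk4 (NM_009870) and Cdk6 (NM_009873), the kinases that act with D cyclins, fell: Cdk4 had 167 and 119 RPKM in PD-1+, 119 and 114 in CCR6+, 387 and 426 in ChILP and 395 and 482 in CLP (log2 fold change -1.44, SE 0.13, adjusted p = 0.00138, edgeR). Cdk6 had 15.6 and 7.40 RPKM in PD-1+, 8.98 and 6.83 in CCR6+, 20.2 and 38.1 in ChILP and 38.7 and 37.7 in CLP (log2 fold change -1.55, SE 0.29, adjusted p = 0.00876, edgeR). The D cyclins were split in this pooled contrast, and the libraries of each overlapped between the pairs of populations. Ccnd2 (NM_009829) fell, with 35.6 and 19.1 RPKM in PD-1+, 17.9 and 19.3 in CCR6+, 33.3 and 32.7 in ChILP and 46.4 and 76.2 in CLP (log2 fold change -0.72, SE 0.20), and Ccnd3 (NM_007632), the most abundant, rose, with 384 and 355 RPKM in PD-1+, 431 and 381 in CCR6+, 388 and 258 in ChILP and 333 and 287 in CLP (log2 fold change 0.56, SE 0.17). Ccnd1 (NM_007631) rose as well, with 6.78 and 7.86 RPKM in PD-1+, 16.9 and 12.1 in CCR6+, 7.80 and 8.52 in ChILP and 6.79 and 6.16 in CLP (log2 fold change 0.78, SE 0.20). Only its CCR6+ values lay above those of ChILP and CLP, and its PD-1+ values lay among them. Against ChILP alone no D cyclin was called. The log2 fold changes there were -0.31 for Ccnd2 (SE 0.24), 0.51 for Ccnd3 (SE 0.21) and 0.59 for Ccnd1 (SE 0.25). Cdk4 and Cdk6 were called in all 8 fits without 1 library, Ccnd1 and Ccnd2 in 2 of them and Ccnd3 in 1. Ccnh and Mnat1 of the CDK activating kinase also fell.

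Of 20 CDK inhibitors and quiescence genes tested 9 rose, 1 fell and 10 did not pass (median 0.71), beside 11.4% of all genes higher and 10.5% lower. Cdkn1b (NM_009875), which encodes p27, had 13.2 and 15.4 RPKM in PD-1+, 16.4 and 17.1 in CCR6+, 8.95 and 7.97 in ChILP and 10.6 and 4.49 in CLP (log2 fold change 1.22, SE 0.31, adjusted p = 0.0277, edgeR). Cdkn2c (NM_007671), which encodes p18, an inhibitor of CDK4 and CDK6, had 31.5 and 44.0 RPKM in PD-1+, 38.6 and 48.9 in CCR6+, 21.3 and 14.6 in ChILP and 19.1 and 15.1 in CLP (log2 fold change 1.49, SE 0.25, adjusted p = 0.00567, edgeR). Both were higher in each PD-1+ and CCR6+ library; without 1 library Cdkn2c was called in all 8 fits and Cdkn1b in 3. Cdkn1a (NM_007669), which encodes p21, had 50.8 and 43.6 RPKM in PD-1+, 36.1 and 53.8 in CCR6+, 38.2 and 35.5 in ChILP and 44.1 and 94.5 in CLP and did not pass (log2 fold change 0.15, SE 0.23). Klf2, a factor of lymphocyte quiescence, and Klf4, a factor of monocyte differentiation, rose: Klf4 (NM_010637) had 11.6 and 15.1 RPKM in PD-1+, 15.9 and 24.5 in CCR6+, 2.18 and 2.70 in ChILP and 1.57 and 3.86 in CLP (log2 fold change 2.96, SE 0.32, adjusted p = 0.00173, edgeR). Klf2 (NM_008452) had 53.3 and 205 RPKM in PD-1+, 73.4 and 269 in CCR6+, 38.4 and 8.49 in ChILP and 18.4 and 26.8 in CLP (log2 fold change 2.99, SE 0.66, adjusted p = 0.0166, edgeR), with the 2 number 2 libraries, which hold the most neutrophil transcripts, far above the number 1 libraries; the call is lost without PD-1+ replicate 2, CLP replicate 1 or CLP replicate 2. Foxo3, Btg1, Btg2, Cdkn2d and Gadd45a rose too, and Trp53 fell.

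**Figure D5:**
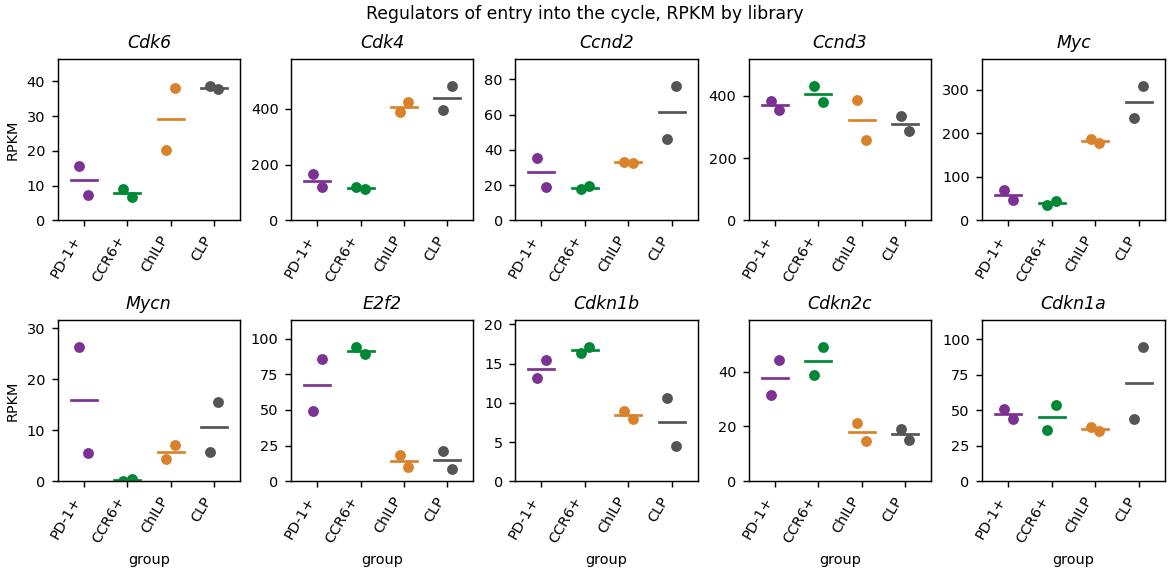
RPKM (y axis, from 0) of 10 regulators of the cycle in the 2 libraries of each group (points) with the mean of the group (line). Cdk6, Cdk4 and Myc are lower in all 4 PD-1+ and CCR6+ libraries than in all ChILP and CLP libraries, E2f2, Cdkn1b and Cdkn2c are higher, and Ccnd2, Ccnd3, Mycn and Cdkn1a overlap.

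Of 29 transcription factor genes of the E2F, MuvB and MYC families tested, 4 fell, 4 rose and 21 did not pass (median 0.00), shares near the 10.5% lower and 11.4% higher of all genes. Myc (NM_001177352) had 69.1 and 47.4 RPKM in PD-1+, 35.7 and 45.0 in CCR6+, 188 and 177 in ChILP and 234 and 309 in CLP (log2 fold change -1.92, SE 0.15, adjusted p = 0.00115, edgeR). Myb (NM_001198914), a factor of cycling haematopoietic progenitors, had 21.3 and 15.0 RPKM in PD-1+, 8.74 and 10.6 in CCR6+, 65.7 and 53.8 in ChILP and 70.8 and 112 in CLP (log2 fold change -2.20, SE 0.18, adjusted p = 0.00115, edgeR). E2f2 (NM_177733), abundant in erythroid precursors, had 49.2 and 85.3 RPKM in PD-1+, 94.1 and 88.9 in CCR6+, 18.6 and 10.4 in ChILP and 20.9 and 8.83 in CLP (log2 fold change 2.69, SE 0.37, adjusted p = 0.0029, edgeR). Myc and Myb were lower, and E2f2 higher, in each PD-1+ and CCR6+ library. Mxd1 (NM_010751), an antagonist of MYC in differentiating myeloid cells, had 37.2 and 67.5 RPKM in PD-1+, 60.6 and 70.2 in CCR6+, 21.2 and 8.41 in ChILP and 17.7 and 6.26 in CLP (log2 fold change 2.40, SE 0.44, adjusted p = 0.00824, edgeR), and Mxd3 and Tfdp2 rose as well. Tfdp1 (NM_009361), which encodes a partner that E2F proteins need to bind DNA, had 28.6 and 27.9 RPKM in PD-1+, 25.1 and 27.3 in CCR6+, 57.0 and 64.7 in ChILP and 57.7 and 65.8 in CLP and fell (log2 fold change -0.90, SE 0.13, adjusted p = 0.00385, edgeR), as did E2f6 (log2 fold change -1.03, SE 0.28, adjusted p = 0.0349, edgeR). Foxm1 (NM_008021), the activator of mitotic genes, had 4.37 and 9.19 RPKM in PD-1+, 5.68 and 11.1 in CCR6+, 10.1 and 6.59 in ChILP and 11.1 and 9.64 in CLP, and its libraries overlapped (log2 fold change -0.02, SE 0.34). Mycn (NM_008709) had 26.4 and 5.50 RPKM in PD-1+, 0 and 0.529 in CCR6+, 4.34 and 7.06 in ChILP and 5.69 and 15.7 in CLP and was not called in this contrast (log2 fold change -1.61, SE 0.75, adjusted p = 0.171, edgeR).

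Within the other comparisons no gene of these 5 lists was called. In ChILP against CLP their medians lay between -0.07 and 0.19, and the farthest of the named genes was Foxo1 (NM_019739), a factor of B cell development and quiescence, with 3.95 and 2.58 RPKM in ChILP, against 12.8 and 13.2 in CLP (log2 fold change -1.94, SE 0.45, adjusted p = 0.262, edgeR). Ccnd2 had 33.3 and 32.7 RPKM in ChILP, against 46.4 and 76.2 in CLP (log2 fold change -0.82, SE 0.29, adjusted p = 0.678, edgeR), lower in both ChILP libraries, as was Cdkn1a with 38.2 and 35.5 RPKM in ChILP, against 44.1 and 94.5 in CLP (log2 fold change -0.83, SE 0.33). Timeless and Dna2 of the replication list had log2 fold changes of -0.43 and 0.60 (SE 0.24 and 0.31), Ndc80 and Melk of the mitotic list -0.63 and -0.55 (SE 0.44 and 0.37), and Rbl2 and Mxd4 0.76 and -0.60 (SE 0.29 and 0.40).

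In PD-1+ against CCR6+ the medians of the 5 lists lay between -0.31 and 0.18. Mycn was the farthest, with 26.4 and 5.50 RPKM in PD-1+ cells, against 0 and 0.529 in CCR6+ cells (adjusted p = 0.636, edgeR), and the PD-1+ libraries themselves differed several-fold. Ccnd1 had 6.78 and 7.86 RPKM in PD-1+ against 16.9 and 12.1 in CCR6+ cells (log2 fold change -1.04, SE 0.29, adjusted p = 0.697, edgeR), and Myb 21.3 and 15.0 RPKM in PD-1+ against 8.74 and 10.6 in CCR6+ cells (log2 fold change 0.84, SE 0.25, adjusted p = 0.729, edgeR). Neither gene overlapped between the groups. Of the replication list, Cdc7 and Rfc1 had log2 fold changes of -0.82 and 0.44 (SE 0.33 and 0.25), and of the mitotic list Dlgap5 and Ncapg2 -0.84 and -0.72 (SE 0.43 and 0.29). Gadd45b and Tob1 had -1.07 and 0.90 (SE 0.61 and 0.36), and Ccnh 0.36 (SE 0.26).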

How the data were processed

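RNA of sorted marrow cells was amplified with Smart-seq2 (full-length polyadenylated transcripts, no molecular identifiers) and read at 50 bp, per the labels' protocols. The submitters' processing notes list the tools Bowtie2 2.2.2 and CASAVA 1.8.4 and the genome build mm9, without a stated role. What counted the reads, and whether strand was used, is not given in the sources used here, so reads from antisense genes or near-identical copies may be included. The authors deposited 1 table per library with 29257 transcript rows that hold read counts and RPKM; the deposited RPKM equal the count over transcript length and 1 total per library.

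For each symbol the row with the largest mean count was kept. The main test was edgeR 4.0.16 (R 4.3.3; TMM, filterByExpr at a minimum count of 10, robust quasi-likelihood, two-sided), with all 8 libraries in 1 fit and Benjamini-Hochberg adjustment over 13619 genes; called means an adjusted p under 0.05. The SE given with edgeR fold changes is the absolute log2 fold change over the square root of the F statistic. It is derived from the test and is not a fitted standard error. Alternatives were DESeq2 1.42.0, its size factors, limma 3.58.1 on log2(RPKM + 1), no filter, other transcripts, a replicate block and libraries left out. RPKM are diluted by abundant transcripts such as globin (0.101% to 5.98% of reads), which TMM corrects for, so fold changes can differ from the RPKM beside them. On average over genes, libraries of 1 group differed by more than sampling noise (mean chi-square per gene 38.9 to 76.5). This mean can be driven by abundant transcripts and was not taken for the members alone.

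Members with values in every library are the 4 of highest mean RPKM and, per comparison, the 2 of largest fold change in each set, and all that were called. Of other lists, markers aside, preset regulators and up to 2 genes per comparison (at least 10 RPKM, no overlap) have values; other called genes are named. Genes outside this rule (Cdk1, Pcna, Top2a, Pdcd1, Ccr6, Klf1, Gata1, Mpo, Cdk2, Cdk7, Cdc25a and Tfdp1) were picked after their values were seen. Members and lists were chosen with earlier results of these data known.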

Additional observations from a re-analysis of the deposited data

How the results depend on the processing

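No member was called in ChILP against CLP or in PD-1+ against CCR6+ under any alternative. In ChILP against CLP edgeR called 3 genes in all, 0 with DESeq2 size factors, 63 without a filter, 59 in the 4 libraries alone, 55 with limma, 263 with DESeq2 and 0 to 51 without 1 library; the mitotic median was 0.0013 to 0.40 without 1 library and 0.28 without the number 1 libraries. In PD-1+ against CCR6+ limma called 2 genes, DESeq2 128, edgeR 0 to 36 without 1 library and 5 without the number 2 libraries of both, where the mitotic median was -0.56; without 1 library the S phase median was -0.33 to -0.072 and the mitotic median -0.54 to -0.18. In PD-1+ and CCR6+ against ChILP and CLP, 14 members were called, 18 by DESeq2 (12 S phase members, of which Rrm2 was higher, and 6 mitotic), 9 without the number 2 libraries of PD-1+ and CCR6+, 5 without the number 1 libraries of ChILP and CLP (1481 genes over all, mitotic median 0.42), 9 against ChILP alone (1668 genes over all) and 8 to 13 without 1 library (1678 to 3038 genes over all, mitotic median 0.092 to 0.36). Of genes called, 48.0% were lower, 58.6% without those number 2 and 29.1% without those number 1 libraries, and 70.7% with limma, whose medians were -0.76 (S phase) and -0.056 (mitotic). Foxm1 turned to 0.051 with DESeq2 and with its size factors, 0.24 without the number 1 libraries, 0.11 against ChILP alone, and lay between -0.39 and 0.26 without 1 library. Cdkn1a turned to -0.10 with limma and -0.025 without the number 1 libraries, and lay between -0.050 and 0.43 without 1 library. Neither gene was called, and the cause of these changes was not tested. Where a library was left out, the lone one of its group is assumed to vary like the others. Correlations of deviations between groups were weak (between -0.11 and 0.09), which cannot show whether replicate numbers pair the samples. Some marker sums did shift alike. Both number 1 libraries of ChILP and CLP held more mature neutrophil and erythroid transcripts than the number 2 libraries. With a replicate block 0, 0 and 2545 genes and, in the last comparison, 12 members were called, Mcm7 and Cenpf being lost.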
